A study of Mus musculus with 16 samples.

Results

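The genes described here are 50 genes of the cell division cycle: cyclins and their kinases, E2F transcription factors, origin licensing and DNA replication factors, mitotic and spindle genes, and inhibitors of cyclin-dependent kinases. They were chosen by symbol from a written list, with no measured value in the rule but with earlier results of these data known. All 50 listed symbols were found among the 49585 genes of the deposited count table. RNA was sequenced from CD4+ T cells sorted from the uterus, or from the para-aortic lymph nodes that drain it, in 16 libraries that form 4 groups of 4. Every mouse was of a BALB/c background and carried the Foxp3 IRES-GFP reporter, in which green fluorescent protein marks cells that express Foxp3, the lineage factor of regulatory T cells (Treg). The groups were conventional Foxp3-negative CD4 T cells of the non-pregnant uterus (CD4conv), Treg of non-pregnant lymph nodes (labelled CD25+), Treg of the non-pregnant uterus (labelled CD25-) and Treg of the uterus on days 6 to 8 of pregnancy (labelled CD25-). The titles of 3 of the 4 pregnant libraries give a later last day than the stage label does. Non-pregnant libraries were pools of 20 mice and pregnant ones pools of 3 to 8 mice, so p-values measure the spread between pools, and age is not given in the labels. Uterine and lymph node Treg therefore differ in the labelled CD25 gate as well as in tissue. The labels put CD4conv and pregnant uterine Treg in sequencing batch 1 and both non-pregnant Treg groups in batch 2.

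Cells enter division from G1 when D-type cyclins with Cdk4 or Cdk6 inactivate the retinoblastoma protein and release E2F factors, which switch on the genes of DNA replication. Cdk2 and Cdk1, with cyclins E, A and B, then drive the S phase and mitosis, and Cdc25 phosphatases activate these kinases by removing inhibitory phosphates. Small inhibitor proteins such as p21, p27 and the INK4 family hold the kinases back, and in most resting lymphocytes the replication and mitosis genes are low until the cell is stimulated.

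Promoter sequence was taken for the members that RefSeq's promoter table holds (43 of 50, GRCm38.p6), as the 250 bases before the annotated start. A search of both strands found the E2F motif TTTCCCGC (reverse GCGGGAAA) in 3 of 43 member promoters, 6.98%, against 1.26% of 16455 protein-coding promoters of the same length. The second E2F form, TTTGGCGC (reverse GCGCCAAA), was in 3 of 43, 6.98%, against 0.565%. All 6 promoters with either form belonged to G1/S or origin licensing genes (Cdk2, Cdc25a, Cdc6, Mcm5, Mcm6 and Mcm7). The CHR element TTTGAA (reverse TTCAAA), a site known from genes of G2 and mitosis, was in 10 of 43, 23.3%, against 14.2%, and 8 of the 10 were cyclin, mitotic or spindle genes. The CCAAT box (reverse ATTGG) was in 32 of 43, 74.4%, against 36.1%. It was in all 7 spindle and chromosome promoters searched and in none of the 3 promoters of D-type cyclins and their kinases. No motif overlapped another in the promoters printed here. They are those of Cdc25b and Mcm6, which are among the members called below, and of Ccnb2 and Mki67. Ccnb2 is the mitotic cyclin most clearly transcribed, and Mki67 is the usual label of dividing cells. Each runs 5′ to 3′ on the gene's strand, with CCAAT boxes, CHR elements and E2F motifs in capitals; a match is a run of letters, not a shown binding site.
Cdc25b (chr2:131186698-131186947, plus strand): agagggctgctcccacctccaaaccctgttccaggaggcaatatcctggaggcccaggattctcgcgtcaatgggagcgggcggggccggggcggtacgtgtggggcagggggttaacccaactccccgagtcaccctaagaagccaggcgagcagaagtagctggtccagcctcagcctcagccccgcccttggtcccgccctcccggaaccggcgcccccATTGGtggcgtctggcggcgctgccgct
Mcm6 (chr1:128359706-128359955, minus strand): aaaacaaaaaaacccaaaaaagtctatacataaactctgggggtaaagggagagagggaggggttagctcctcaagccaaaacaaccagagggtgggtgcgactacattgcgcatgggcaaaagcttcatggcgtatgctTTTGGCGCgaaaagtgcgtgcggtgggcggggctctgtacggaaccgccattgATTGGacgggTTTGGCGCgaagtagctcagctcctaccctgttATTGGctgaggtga
Ccnb2 (chr9:70421555-70421804, minus strand): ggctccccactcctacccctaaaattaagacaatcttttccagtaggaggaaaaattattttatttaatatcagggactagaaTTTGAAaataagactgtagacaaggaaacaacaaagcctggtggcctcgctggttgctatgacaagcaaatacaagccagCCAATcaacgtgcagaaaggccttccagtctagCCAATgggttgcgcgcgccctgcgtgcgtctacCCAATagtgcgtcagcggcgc
Mki67 (chr7:135716380-135716629, minus strand): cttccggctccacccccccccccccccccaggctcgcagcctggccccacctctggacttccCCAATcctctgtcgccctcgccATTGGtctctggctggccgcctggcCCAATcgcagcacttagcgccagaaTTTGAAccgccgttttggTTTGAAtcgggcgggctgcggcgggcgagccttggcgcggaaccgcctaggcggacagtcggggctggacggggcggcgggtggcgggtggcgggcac
The Mcm6 promoter held the E2F form TTTGGCGC at 2 places, the Ccnb2 promoter held 1 CHR element with 3 CCAAT boxes, and the Mki67 promoter held 2 CHR elements. The Cdc25b promoter held 1 CCAAT box in reverse and none of the other motifs searched.

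Libraries held 1718558 to 15190212 counts, and Foxp3 was at 0.503 to 3.26 CPM (counts scaled to a library total of 1000000) in the 4 CD4conv libraries against at least 192 CPM in each of the 12 Treg libraries. A background of reads was estimated from 1427 olfactory and vomeronasal receptor genes that T cells are not known to use. The estimate assumes that background spreads evenly over exons, which was not tested. Genes can lie under the level it gives, as Cdkn2a did at 0.11 times that level. That background was 8.69% to 53.6% of counts, and it exceeded 30% in 5 libraries. These were replicates 2 and 4 of the pregnant group, replicates 3 and 5 of non-pregnant uterine Treg and replicate 3 of lymph node Treg. The 8 T cell markers summed to 1895 to 8008 CPM. Transcripts of other cells were unevenly shared. The 12 macrophage and dendritic cell markers summed to 1725 to 23015 CPM in CD4conv and to 1246 CPM or less in every Treg library, and all 12 were highest in CD4conv. The 8 NK cell markers summed to 452 to 1807 CPM in CD4conv and at most 96.5 CPM elsewhere. The 2 CD8 T cell markers summed to 139 to 350 CPM in CD4conv and at most 38.6 CPM elsewhere. In uterine Treg 5 the 9 stroma and decidua markers reached 1061 CPM and the 4 epithelium markers 445 CPM, and in CD4conv 3 the latter reached 306 CPM. In pregnant uterine Treg 4 the epithelium markers summed to 161 CPM. Its 5 trophoblast markers summed to 120 CPM, 3.28 times their background, against at most 26.8 CPM in any other library. The T cell marker sum was lowest in that library, at 1895 CPM. The part of these cells in the values below was not tested, apart from leaving out libraries.

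The members were mostly low. Set against the background expected for its exonic length, a gene was counted as above background when its mean over the 16 libraries exceeded 5 times that level, and 18 of 50 members did so. The same held for 4728 of the 21319 protein-coding genes with a count, 22.2%. The median member stood at 3.32 times its background and the median protein-coding gene at 1.85 times. Just inside the threshold lay Stmn1 at 5.03 and Mcm7 at 5.96 times the background, and just outside it Mcm2 at 4.59 and Rrm2 at 4.51 times. By role, 3 of 4 D-type cyclins and kinases, 6 of 9 licensing genes and 3 of 4 inhibitors were above background. In contrast, 0 of 9 mitotic kinase and checkpoint genes and 1 of 4 S, G2 and M cyclins with Cdk1 were. Among the other roles the share was 1 of 4 genes of nucleotide supply and the clamp (Pcna) and 3 of 9 spindle and chromosome genes. It was 1 of 7 for the role of G1/S cyclins, kinase, phosphatases and E2F factors. That 1 was Cdc25b, whose product acts at the entry to mitosis. Reads of 10 of the 800 member and library pairs were 0, and 5 of the 10 were in uterine Treg 1, where a count of 0 allows up to 1.06 CPM, for counting error only.

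**Figure D1:**
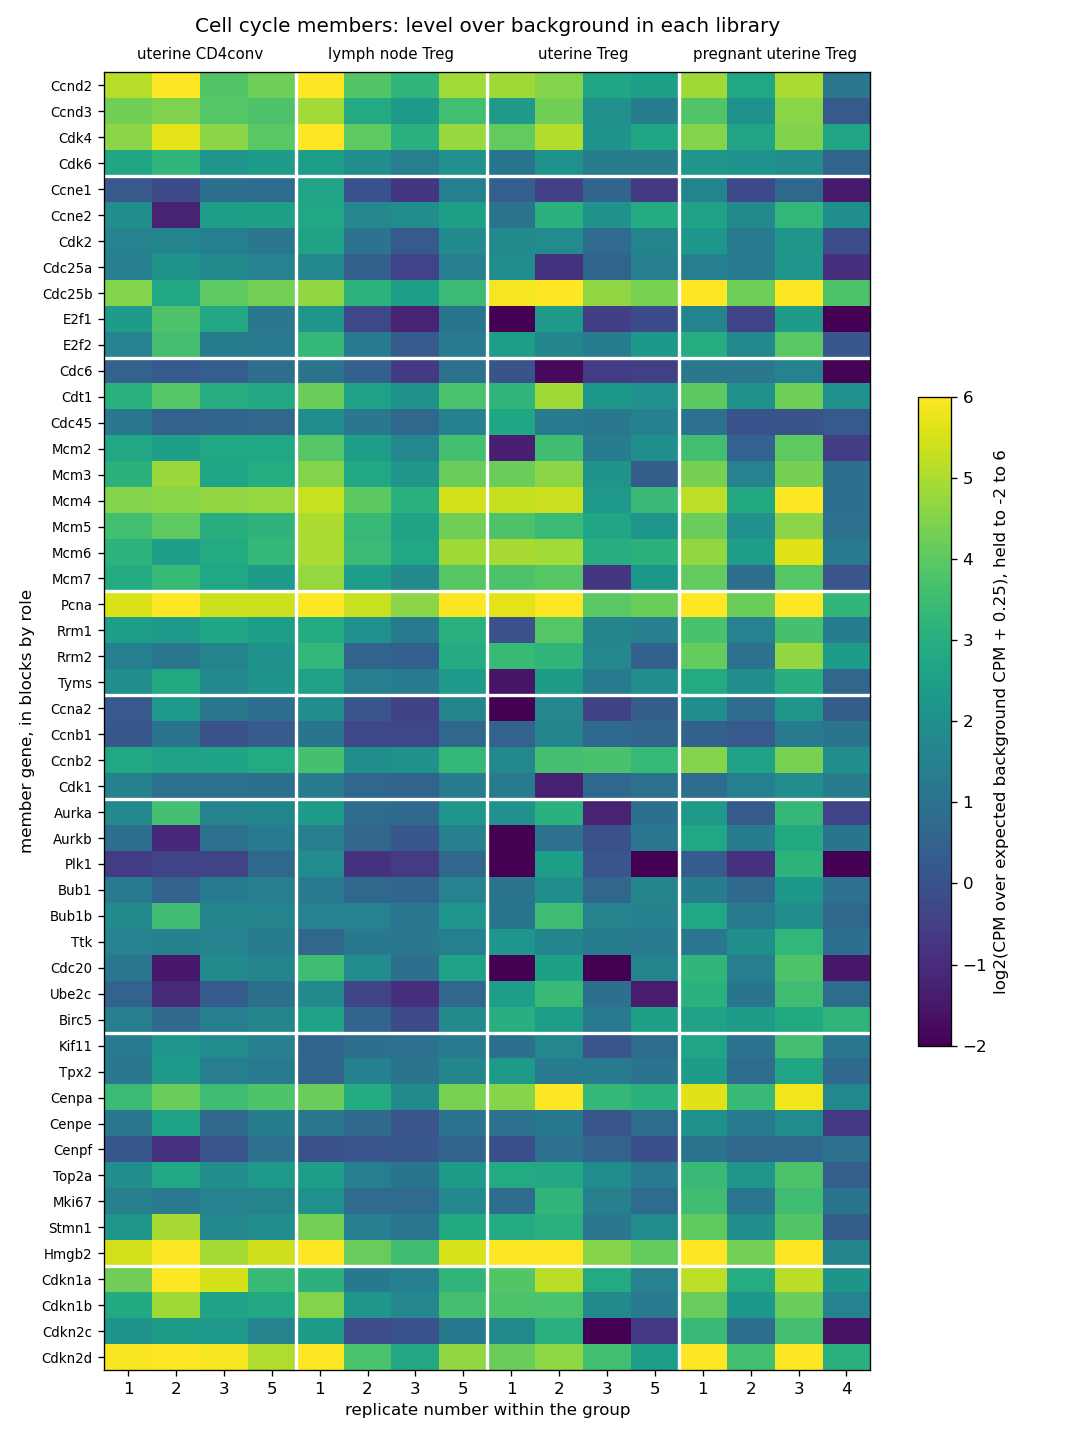
Level of each of the 50 members in each of the 16 libraries, as log2 of CPM over the CPM expected from background, with members in blocks by role and libraries in columns by group. Bright rows include Pcna, Hmgb2, Cdc25b, Cdkn2d, Mcm4 and Ccnd2. The 9 mitotic kinase and checkpoint genes are dimmer, their sum lying between 1.28 and 7.76 times the background over the libraries. Pregnant uterine Treg 4, the library of the highest background, is dark for most genes.

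Levels between genes can be compared per kilobase of exon. On that scale Pcna, the sliding clamp of DNA polymerase, was the highest member at 66.2 CPM per kilobase, followed by Hmgb2, a chromatin protein, at 60.3 and Cdc25b, an activating phosphatase of the cyclin-dependent kinases, at 50.3. Cdkn2d, the inhibitor p19 that blocks Cdk4 and Cdk6, had 41.5, Mcm4 of the replicative helicase 32.2 and Ccnd2, cyclin D2, 30.0 CPM per kilobase. Ccnb2, cyclin B2, led the S, G2 and M cyclins at 13.7, and Birc5, survivin of the chromosomal passenger complex, led the mitotic genes at 7.95 CPM per kilobase. In these sorted pools a change in the share of dividing cells and a change in RNA per cell cannot be told apart.

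No member passed an adjusted p of 0.05 in any of the 4 comparisons when 30096 genes were tested together (edgeR's quasi-likelihood test with Benjamini-Hochberg adjustment). Of all genes 0% passed in uterine against lymph node Treg and in pregnant against non-pregnant Treg, 0.518% in uterine Treg against CD4conv and 0.432% in pregnant Treg against CD4conv. At an unadjusted p under 0.05 there were 2 of 50 members in uterine against lymph node Treg, against 3.01% of all genes. There were 7 of 50 in uterine Treg against CD4conv, against 5.33%. There were 2 of 50 in pregnant against non-pregnant uterine Treg, against 2.73%, and 5 of 50 in pregnant Treg against CD4conv, against 4.79%. DESeq2 called 1, 1, 0 and 2 members in these comparisons, in that order: Cdc25b in each of the 3 with a call, and Birc5 in the last. It called 0.0997%, 1.1%, 0.0399% and 1.1% of all genes. When the test was limited to the 4707 genes above background, 18 members remained in the test and 4 of them, Cdc25b, Cenpa, Mcm6 and Cdkn2d, passed in at least 1 comparison, as did 501 of the 4707 genes, 10.6%. These 4 results are described first. Among the 3 comparisons with CD4conv or lymph node Treg, uterine Treg against CD4conv shares libraries with each of the others. Its results are not independent of theirs. The others share no library with each other, though all 16 libraries entered 1 fit.

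**Figure D2:**
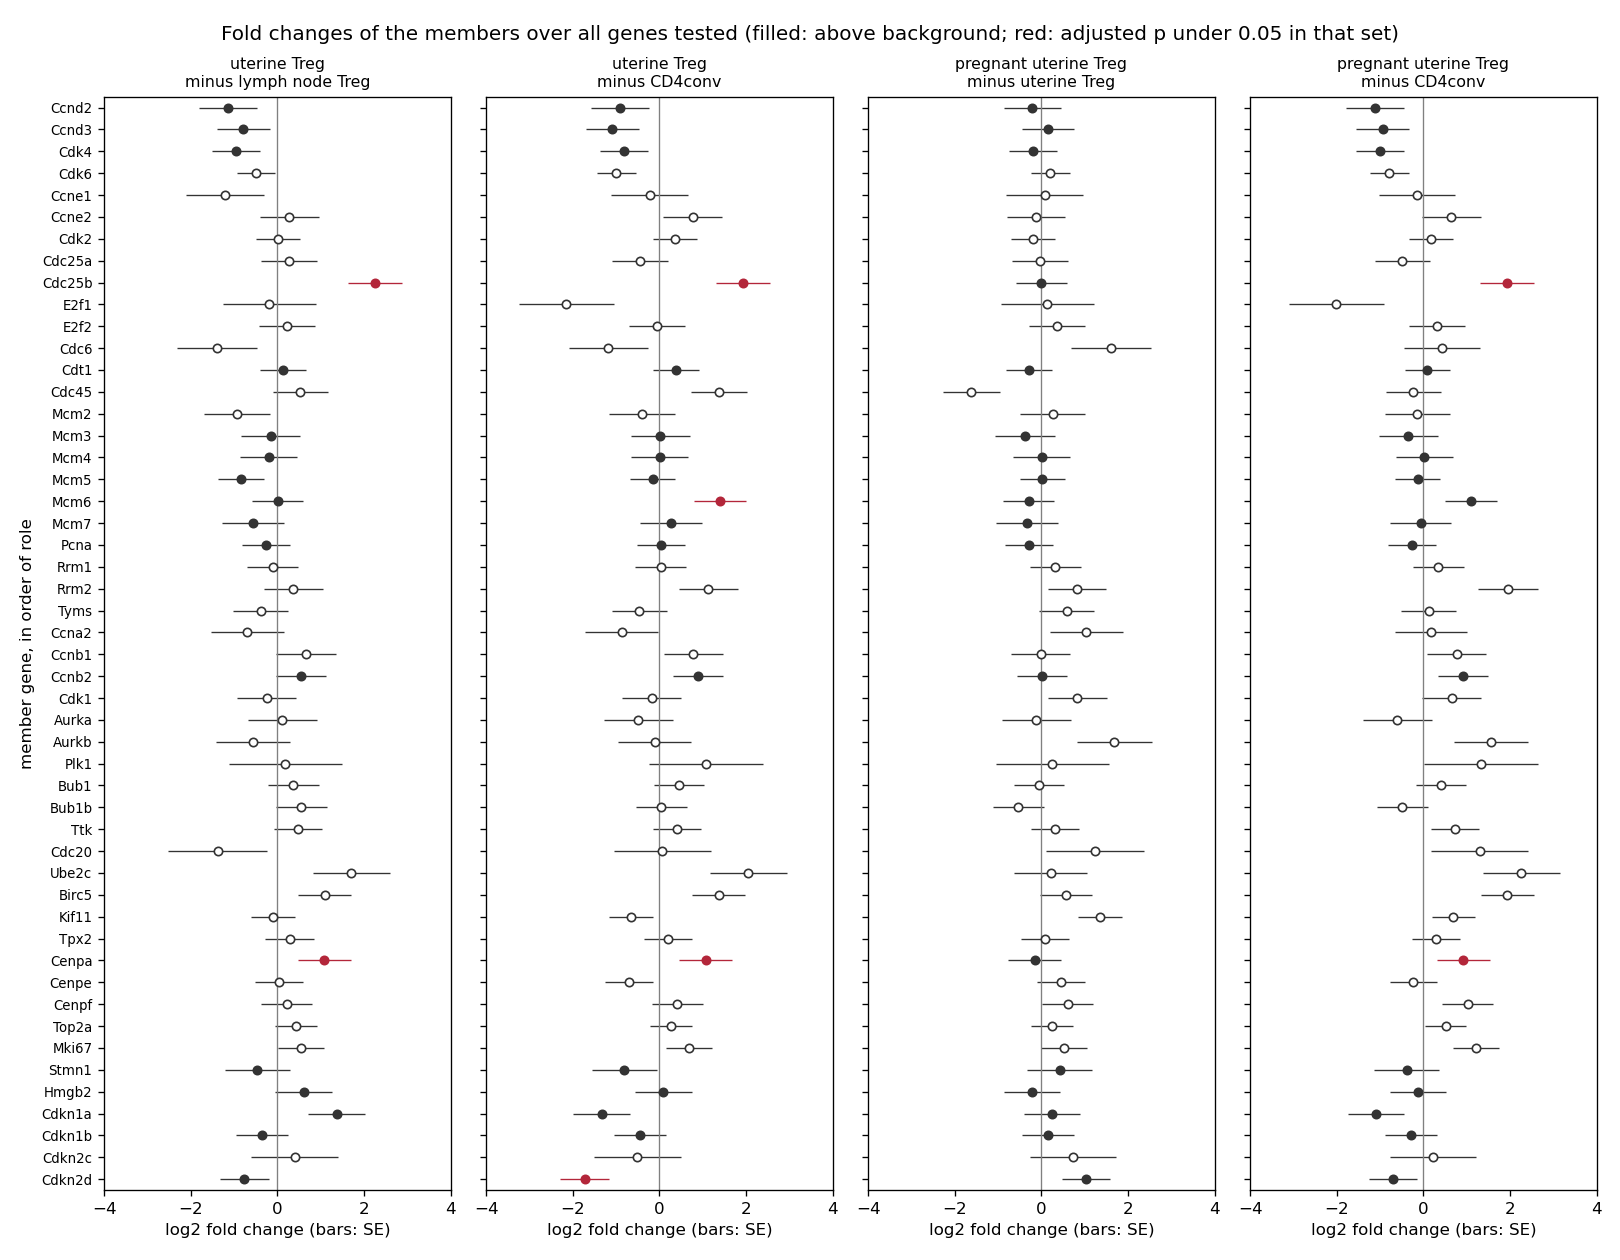
Log2 fold change of each member with its standard error in the 4 comparisons, from the fit over all 30096 genes. Filled points are the 18 members above background, open points the other 32, and red points those past an adjusted p of 0.05 among the 4707 genes above background: Cdc25b in 3 panels, Cenpa in 3, and Mcm6 and Cdkn2d in 1.

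Cdc25b was several times higher in uterine Treg, pregnant or not, than in lymph node Treg or in uterine CD4conv. It encodes the phosphatase that helps start Cdk1 activity at the entry to mitosis, and lies at chr2:131186949-131198497 (GRCm38, GENCODE M21, ENSMUSG00000027330). Its level was 302, 474, 259 and 217 CPM in uterine Treg 1, 2, 3 and 5, and 352, 197, 397 and 215 CPM in pregnant uterine Treg 1 to 4. It was 69.4, 69.6, 62.3 and 53.1 CPM in lymph node Treg 1, 2, 3 and 5, and 110, 19.1, 72.4 and 131 CPM in CD4conv 1, 2, 3 and 5. All 8 uterine Treg libraries, pregnant or not, lay above all 8 others. Pregnant uterine Treg was not tested against lymph node Treg, from which it also differs in batch, labelled CD25 gate and pregnancy. Group means were 313 ± 113 (SD, n = 4) in uterine Treg and 63.6 ± 7.77 CPM in lymph node Treg. Among genes above background the difference was 2.42 ± 0.38 on the log2 scale (SE, edgeR adjusted p = 0.00332), where 0.956% of genes were called higher and 0.361% lower. Against CD4conv it was 2.02 ± 0.37 (edgeR adjusted p = 0.00214) in uterine Treg, where 3.17% of genes were called higher. In pregnant uterine Treg it was 2.03 ± 0.37 (edgeR adjusted p = 0.00197), where 4.19% were called higher and 4.29% lower.

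The uterine against lymph node comparison and that of pregnant Treg against CD4conv each lie within 1 sequencing batch, and Cdc25b differed in both. Pregnant and non-pregnant uterine Treg differed by 0.01 ± 0.36 in Cdc25b (SE, edgeR adjusted p = 0.996). Over all 30096 genes its differences were 2.25 ± 0.62, 1.93 ± 0.62 and 1.93 ± 0.62 in the 3 comparisons, with adjusted p (edgeR) of 1, 0.312 and 0.361. The call among genes above background held in 8 of 8 fits that each left out 1 library, in each of the 3 comparisons. Without the 5 libraries over 30% background, the difference from lymph node Treg was 2.56 and lost its call (edgeR adjusted p = 0.0722), while both differences from CD4conv kept theirs. Exons of Spef1 on the other strand overlap 92 bases of those of Cdc25b, and no source states that counting used strand.

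**Figure D3:**
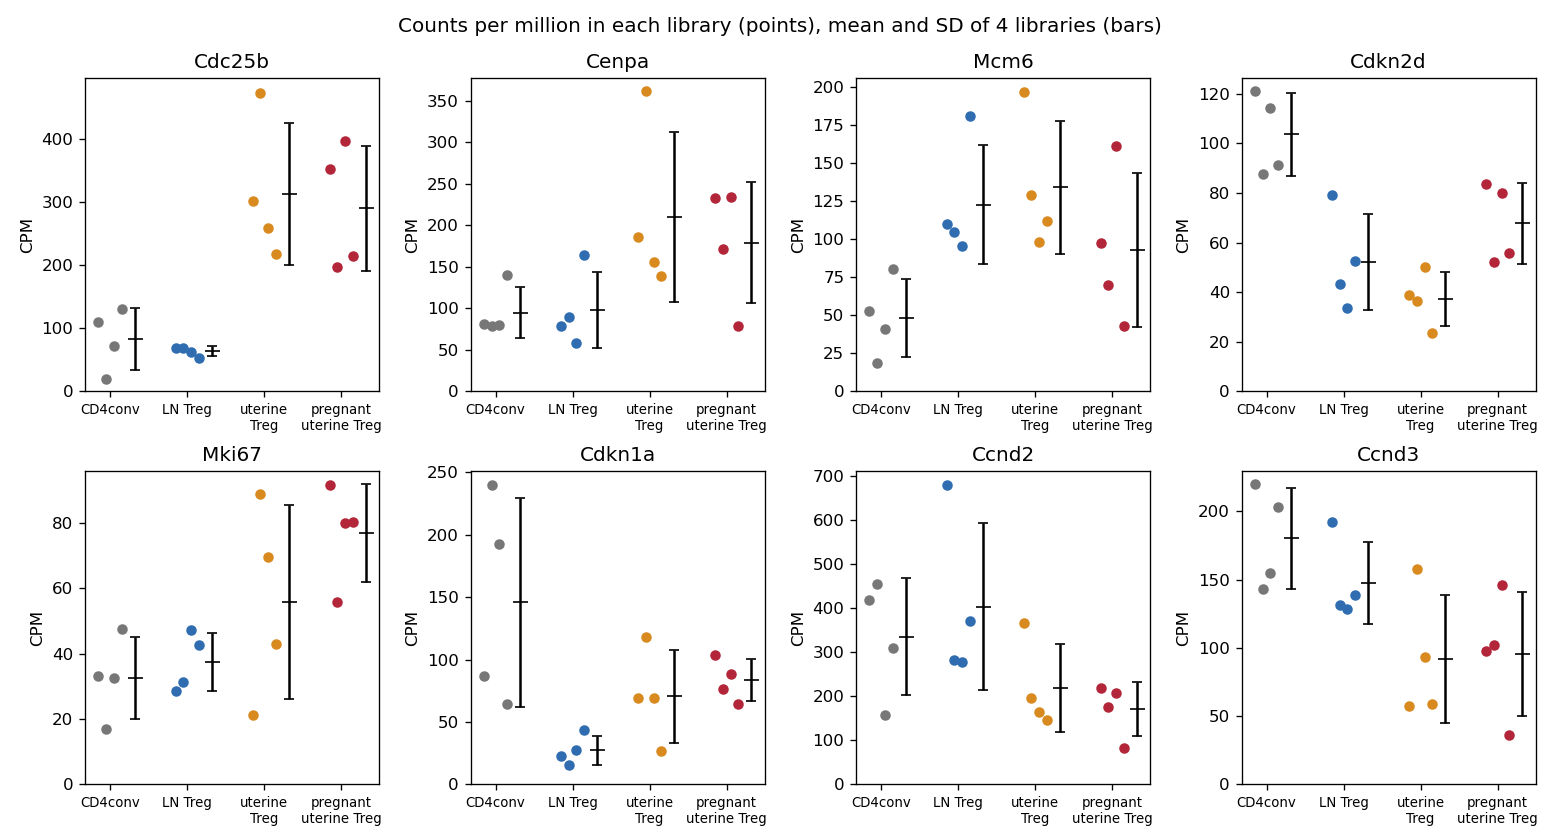
CPM of 8 members in each library, with the mean and SD of 4 libraries beside the points of each group. For Cdc25b every uterine Treg library (197 CPM or more) sits above every CD4conv and lymph node library (131 CPM or less), and for Cdkn2d every CD4conv library (87.5 CPM or more) sits above every other library (83.7 CPM or less).

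Cenpa, the histone variant that marks centromeres (chr5:30666777-30674830, ENSMUSG00000029177), was also higher in both uterine Treg groups, with overlap. It had 185, 361, 156 and 139 CPM in uterine Treg and 232, 171, 234 and 78.9 CPM in pregnant uterine Treg. In lymph node Treg it had 78.9, 90.0, 58.8 and 164 CPM, and in CD4conv 80.7, 78.2, 79.6 and 140 CPM. The groups overlapped through lymph node Treg 5, CD4conv 5 and pregnant uterine Treg 4. The difference among genes above background was 1.23 ± 0.30 between uterine and lymph node Treg (edgeR adjusted p = 0.0468) and 1.21 ± 0.29 between uterine Treg and CD4conv (edgeR adjusted p = 0.0172). Pregnant Treg differed from CD4conv by 1.06 ± 0.29 (edgeR adjusted p = 0.0317). The call held in 1 of 8 fits with 1 library left out in the tissue comparison (that without lymph node Treg 5), in 4 of 8 against CD4conv and in 2 of 8 for pregnant Treg. Without any one of CD4conv 1, 2 or 3 both differences from CD4conv lost their call, as did the non-pregnant one without uterine Treg 2 and the pregnant one without pregnant uterine Treg 1, 2 or 3.

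Mcm6, a subunit of the MCM2-7 helicase that is loaded at replication origins in G1, was lower in CD4conv than in uterine Treg. The gene lies at chr1:128331590-128359664 (ENSMUSG00000026355). It had 53.0, 18.4, 40.6 and 80.3 CPM in CD4conv against 196, 129, 98.1 and 112 CPM in uterine Treg, with no overlap. Lymph node Treg had 110, 104, 95.4 and 181 CPM and pregnant uterine Treg 97.4, 69.6, 161 and 43.1 CPM, so that only the pregnant group among Treg overlapped CD4conv. Uterine Treg exceeded CD4conv by 1.59 ± 0.35 (SE, edgeR adjusted p = 0.00816 among genes above background), a call that held in 8 of 8 fits with 1 library left out. Pregnant Treg exceeded CD4conv by 1.09 ± 0.34 (edgeR adjusted p = 0.0566), and by 1.59 (edgeR adjusted p = 0.0247) when replicate number was a block, in a fit on the 6 libraries numbered 1 to 3. The same 6 libraries without the block gave 1.54 (edgeR adjusted p = 0.0569). Over all numbers and without the block, it also passed when CD4conv 5 was left out. Uterine and lymph node Treg differed by 0.29 ± 0.34 (edgeR adjusted p = 0.846).

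No other subunit of the helicase passed the threshold. Mcm4 had 104, 63.8, 111 and 166 CPM in CD4conv and 106, 117, 93.1 and 207 CPM in lymph node Treg. It had 192, 135, 45.8 and 105 CPM in uterine Treg and 106, 72.1, 202 and 25.5 CPM in pregnant uterine Treg. These groups overlapped throughout, and uterine Treg and CD4conv differed by 0.17 ± 0.39 among genes above background (edgeR adjusted p = 0.85). Mcm2, below the background threshold, had 60.5, 28.7, 55.0 and 80.8 CPM in CD4conv and 75.3, 75.8, 65.2 and 110 CPM in lymph node Treg. It ranged from 1.42 to 74.1 CPM in uterine Treg and from 12.9 to 77.7 CPM in pregnant uterine Treg, with the group ranges overlapping. Mcm3, Mcm5 and Mcm7 differed by 0.22, 0.29 and 0.48 between uterine Treg and CD4conv among genes above background, and the licensing factor Cdt1 by 0.59, none past the threshold.

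Cdkn2d was the 1 member called lower, in uterine Treg against CD4conv. It lies at chr9:21288410-21291407 (ENSMUSG00000096472). It had 121, 87.5, 114 and 91.3 CPM in CD4conv, and lymph node Treg had 79.1, 43.4, 33.7 and 52.6 CPM. Uterine Treg had 38.9, 36.3, 50.1 and 23.8 CPM, and pregnant uterine Treg 83.7, 52.0, 80.1 and 55.7 CPM. CD4conv lay above all 12 Treg libraries, and the pregnant group lay above the non-pregnant uterine group with no overlap. Uterine Treg differed from CD4conv by -1.35 ± 0.30 on the log2 scale (edgeR adjusted p = 0.00998 among genes above background, where 3.06% were called lower), and the call held in 8 of 8 fits with 1 library left out. Pregnant Treg differed from non-pregnant uterine Treg by 0.96 ± 0.30 (edgeR adjusted p = 0.67) and from CD4conv by -0.39 ± 0.30 (edgeR adjusted p = 0.44).

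CD4conv 2 and 3 carried the most macrophage marker RNA, 17500 and 23015 CPM. Without both, Cdc25b kept its call against CD4conv in uterine Treg (1.52, edgeR adjusted p = 0.00684) and in pregnant Treg (1.53, edgeR adjusted p = 0.00604). The differences from CD4conv of Cenpa (1.04), Mcm6 (1.16) and Cdkn2d (-1.31) in uterine Treg kept their direction and lost their call, with edgeR adjusted p of 0.265, 0.13 and 0.0796, as did Cenpa in pregnant Treg (0.89, edgeR adjusted p = 0.325). Without the 5 libraries over 30% background, uterine Treg against CD4conv kept all 4 calls among genes above background. Over all 30096 genes that fit called Cdc25b (2.42, edgeR adjusted p = 0.0137), Mcm6 (1.87, edgeR adjusted p = 0.0301) and Cenpa (1.64, edgeR adjusted p = 0.048). It called 113 genes higher and 327 lower, against 10 and 146 with all libraries. That fit kept only replicates 1 and 2 of uterine Treg and was added after seeing the data. It lost the Cenpa call in pregnant Treg against CD4conv (1.17, edgeR adjusted p = 0.0719) and in the tissue comparison (1.27, edgeR adjusted p = 0.192). Cenpa in pregnant Treg against CD4conv also lost its call when only the libraries of those groups were fitted (1.02). The comparison of uterine Treg with CD4conv crosses sequencing batches, which cannot be told apart from cell type there.

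The other inhibitors did not pass. Cdkn1a, p21, the p53-induced inhibitor, had 87.1, 240, 192 and 64.8 CPM in CD4conv and 22.7, 15.7, 27.9 and 43.2 CPM in lymph node Treg. It had 69.0, 118, 69.2 and 26.7 CPM in uterine Treg and 104, 76.3, 88.4 and 64.6 CPM in pregnant uterine Treg. Its 2 highest values were in CD4conv 2 and 3, the libraries highest in macrophage markers. Uterine Treg differed from lymph node Treg by 1.48 ± 0.44 (edgeR adjusted p = 0.134, genes above background) and from CD4conv by -1.04 ± 0.42 (edgeR adjusted p = 0.175). Without CD4conv 2 and 3 that last difference was 0.02. Cdkn1b, p27, the inhibitor that keeps naive T cells out of cycle, had 40.8, 98.4, 32.5 and 55.0 CPM in CD4conv and 76.8, 42.9, 42.5 and 75.1 CPM in lymph node Treg. It had 82.8, 55.7, 41.6 and 28.2 CPM in uterine Treg and 63.0, 58.5, 56.6 and 52.3 CPM in pregnant uterine Treg, overlapping in every comparison. Cdkn2c, p18, was 2.26 times its background and ranged from 0 to 23.2 CPM.

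D-type cyclins and their kinases all had lower fitted values in uterine than in lymph node Treg and than in CD4conv, and none passed. Ccnd2 had 420, 454, 159 and 309 CPM in CD4conv and 681, 283, 278 and 372 CPM in lymph node Treg. Uterine Treg had 366, 197, 166 and 146 CPM and pregnant uterine Treg 218, 175, 207 and 82.3 CPM. Ccnd3, cyclin D3, had 220, 143, 155 and 203 CPM in CD4conv and 192, 131, 129 and 139 CPM in lymph node Treg. The values were 57.3, 158, 93.0 and 58.9 CPM in uterine Treg and 97.9, 102, 146 and 35.8 CPM in its pregnant counterpart. For both cyclins non-pregnant uterine Treg extended lower than lymph node Treg and CD4conv, and its highest library reached into the range of both. For Ccnd2 its values of 197 and 166 CPM also lay within the CD4conv range of 159 to 454 CPM. Over all genes the 4 fitted differences lay between -1.14 (Ccnd2) and -0.49 (Cdk6) against lymph node Treg and between -1.09 (Ccnd3) and -0.81 (Cdk4) against CD4conv. In pregnant Treg against CD4conv they lay between -1.12 (Ccnd2) and -0.79 (Cdk6). Among genes above background Cdk4 had a smaller difference there, -0.32 ± 0.35 (edgeR adjusted p = 0.606) in place of -1.01, and between -0.85 and -0.11 with 1 library left out. The lowest adjusted p in the role among genes above background was 0.08, for Ccnd3 in uterine Treg against CD4conv (-0.89 ± 0.29, edgeR).

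Cdk4 had 101, 125, 94.6 and 86.8 CPM in CD4conv and 165, 110, 83.2 and 117 CPM in lymph node Treg. In uterine Treg it had 73.3, 102, 37.4 and 58.9 CPM, and in pregnant uterine Treg 59.2, 56.8, 50.4 and 86.7 CPM. The pregnant libraries lay just below those of CD4conv, 86.7 against 86.8 CPM at the nearest. Cdk6, below the background threshold, had 113, 99.9, 73.2 and 125 CPM in CD4conv and 55.9, 105, 106 and 72.6 CPM in lymph node Treg. It had 36.1, 51.5, 90.8 and 91.1 CPM in uterine Treg and 50.2, 160, 35.0 and 74.7 CPM in pregnant uterine Treg, with the groups overlapping. All 4 genes of the role share exonic bases with a gene on the other strand (641 bases with Tspan31 for Cdk4, 361 with Bysl for Ccnd3), as 14 of the 50 members do, so their values are uncertain by that share.

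In the role of G1/S cyclins, kinase, phosphatases and E2F factors, no gene other than Cdc25b was above background. Ccne1, cyclin E1, was at 1.00 times it. E2f1, the activating factor that induces replication genes, was at 20.7, 32.9, 25.9 and 11.3 CPM in CD4conv and at 11.3 CPM or less in the pregnant Treg libraries. The fitted difference between pregnant Treg and CD4conv was -2.01 ± 1.09 (edgeR adjusted p = 1). Of the nucleotide and clamp genes, Pcna had 147, 142, 121 and 174 CPM in CD4conv and 191, 204, 183 and 199 CPM in lymph node Treg. It had 165, 266, 99.3 and 124 CPM in uterine Treg and 167, 125, 138 and 97.9 CPM in pregnant uterine Treg, which differed from CD4conv by 0.08 ± 0.21 among genes above background (edgeR adjusted p = 0.85). Its standard error was the smallest of the 18 members tested there. Rrm2, the small subunit of ribonucleotide reductase, ranged from 4.15 to 19.5 CPM in CD4conv and from 14.0 to 60.2 CPM in pregnant Treg, a fitted difference of 1.95 ± 0.70 (edgeR adjusted p = 0.564 over all genes).

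Of the 9 mitotic kinase and checkpoint genes, 7 had positive and 2 negative fitted differences between pregnant Treg and CD4conv over all genes, with a median of 1.30, and none passed (edgeR). Of the 9 spindle and chromosome genes 6 were positive and 3 negative, with a median of 0.51. Mki67, the Ki-67 protein that coats mitotic chromosomes, had 33.0, 16.9, 32.5 and 47.7 CPM in CD4conv and 28.6, 31.4, 47.1 and 42.7 CPM in lymph node Treg. Uterine Treg had 21.2, 88.9, 69.6 and 43.1 CPM and pregnant uterine Treg 91.6, 55.8, 80.0 and 80.3 CPM. All 4 pregnant libraries lay above all CD4conv and lymph node libraries, and non-pregnant uterine Treg spanned both. Pregnant Treg differed from CD4conv by 1.21 ± 0.54 (edgeR adjusted p = 0.922 over all genes) and from non-pregnant uterine Treg by 0.53 ± 0.53 (edgeR adjusted p = 1). If spread evenly over exons, background alone would give 21.8 CPM in the pregnant group and 12.6 CPM in CD4conv. Less that background the means were 55.1 and 19.9 CPM.

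Ccnb2 had 12.8, 6.83, 11.2 and 19.2 CPM in CD4conv and 14.1, 11.9, 19.2 and 20.2 CPM in lymph node Treg. The values were 6.37, 17.3, 53.1 and 43.6 CPM in uterine Treg and 27.5, 25.5, 22.4 and 23.8 CPM in its pregnant counterpart. The pregnant libraries were close together and all above CD4conv, with a difference of 1.29 ± 0.59 among genes above background (edgeR adjusted p = 0.187). Ccnb1, cyclin B1, was near its background, at 4.81, 6.02, 4.02 and 7.30 CPM in CD4conv and 6.03, 5.24, 7.56 and 7.84 CPM in lymph node Treg. In uterine Treg it had 6.72, 11.0, 16.1 and 15.3 CPM, and in pregnant uterine Treg 3.94, 11.3, 6.39 and 33.6 CPM. Its highest values were in libraries of high background.

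Top2a, the topoisomerase that untangles replicated DNA, had 41.5, 44.4, 39.6 and 75.3 CPM in CD4conv and 36.2, 47.6, 54.1 and 59.2 CPM in lymph node Treg. It had 87.8, 57.9, 84.5 and 56.9 CPM in uterine Treg and 74.2, 115, 84.2 and 42.8 CPM in pregnant uterine Treg, with overlap in every comparison. Birc5 had 10.6, 3.74, 10.4 and 17.1 CPM in CD4conv and 14.8, 9.05, 6.98 and 14.9 CPM in lymph node Treg. It had 37.2, 16.9, 20.8 and 53.5 CPM in uterine Treg and 15.9, 49.3, 16.8 and 135 CPM in pregnant uterine Treg, the highest of them in pregnant uterine Treg 4, at 53.6% background. Without the 5 libraries over 30% background its fitted difference between pregnant Treg and CD4conv went from 1.94 to 0.88.

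Hmgb2 had 173, 227, 110 and 225 CPM in CD4conv and 155, 110, 106 and 183 CPM in lymph node Treg. Uterine Treg had 285, 292, 192 and 145 CPM and pregnant uterine Treg 273, 171, 216 and 36.4 CPM. Uterine Treg exceeded lymph node Treg by 0.86 ± 0.33 among genes above background (edgeR adjusted p = 0.284), and the groups overlapped. Stmn1, stathmin, which destabilises microtubules, had 11.2, 45.1, 7.14 and 11.9 CPM in CD4conv and 28.4, 10.0, 11.6 and 18.2 CPM in lymph node Treg. It had 18.8, 14.6, 10.6 and 18.3 CPM in uterine Treg and 24.8, 20.5, 19.4 and 8.67 CPM in pregnant uterine Treg, again with overlap.

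Counting genes whose groups shared no CPM value, 7 members were higher in all 4 pregnant Treg libraries than in all 4 CD4conv libraries, against 1.31% of all genes. Besides Cdc25b, Ccnb2 and Mki67 these were Aurkb (the passenger complex kinase), Ube2c (the ubiquitin enzyme of the anaphase promoting complex) and the spindle proteins Kif11 and Tpx2, the last 4 named after their values were seen. In the same comparison 3 were lower, Cdk4, E2f1 and Cdkn2d, against 3.05%. Among genes above background 2 of 18 members (Cdc25b and Ccnb2) were higher, against 2.57%, and 2 (Cdk4 and Cdkn2d) lower, against 9.11%. The other higher members, Mki67 included, were not above background. Pregnant uterine Treg 2 and 4 held 35.3% and 53.6% background. Kif11 had 36.3 to 64.1 CPM in pregnant Treg against 21.9 to 33.6 CPM in CD4conv, and Ube2c had 14.2 to 20.7 against 0.488 to 7.69 CPM. Exons of Tnnc2 on the other strand overlap 592 bases of those of Ube2c. In uterine against lymph node Treg 2 members (Cdc25b and Birc5) were higher without overlap, against 1.22%, and 0 lower, against 2.18%. In uterine Treg against CD4conv 2 (Cdc25b and Mcm6) were higher, against 1.68%, and 1 (Cdkn2d) lower, against 2.65%. In pregnant against non-pregnant uterine Treg 2 (Kif11 and Cdkn2d) were higher, against 0.532%, and 0 lower, against 0.498%.

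The summed level of the 9 mitotic kinase and checkpoint genes was 84.3, 78.9, 79.6 and 123 CPM in CD4conv and 114, 202, 158 and 276 CPM in pregnant Treg. The sum was highest in pregnant uterine Treg 4 and 2, the libraries of that group with 53.6% and 35.3% background. In uterine Treg the sum was 120, 160, 124 and 194 CPM at 16.8%, 11.6%, 33.9% and 34.9% background, and in lymph node Treg 77.3, 101, 116 and 120 CPM at 9.22%, 26.1%, 38.6% and 16.6%. Within uterine and lymph node Treg the order of the sums did not follow that of background. Within CD4conv it did, at 16.0%, 9.39%, 15.1% and 21.7% background in CD4conv 1, 2, 3 and 5. Set over the background expected for the same genes, the sums were 2.25, 3.58, 2.25 and 2.42 times in CD4conv and 4.87, 2.43, 7.76 and 2.19 times in pregnant Treg. Pregnant uterine Treg 1 and 3, with 9.94% and 8.69% background, stood above every CD4conv library on the second scale, and replicates 2 and 4 did not. That scale divides by each library's own background. On it the 8 T cell markers also put replicates 1 and 3 above every CD4conv library, at 255 and 286 times. Replicates 2 and 4 stood at 37.4 and 11.8 times there, and CD4conv at 67.3 to 115 times. The pattern is therefore not particular to the mitotic genes. The part of background in the mitotic values was not tested further, nor was that of other cells in pregnant uterine Treg 4.

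**Figure D4:**
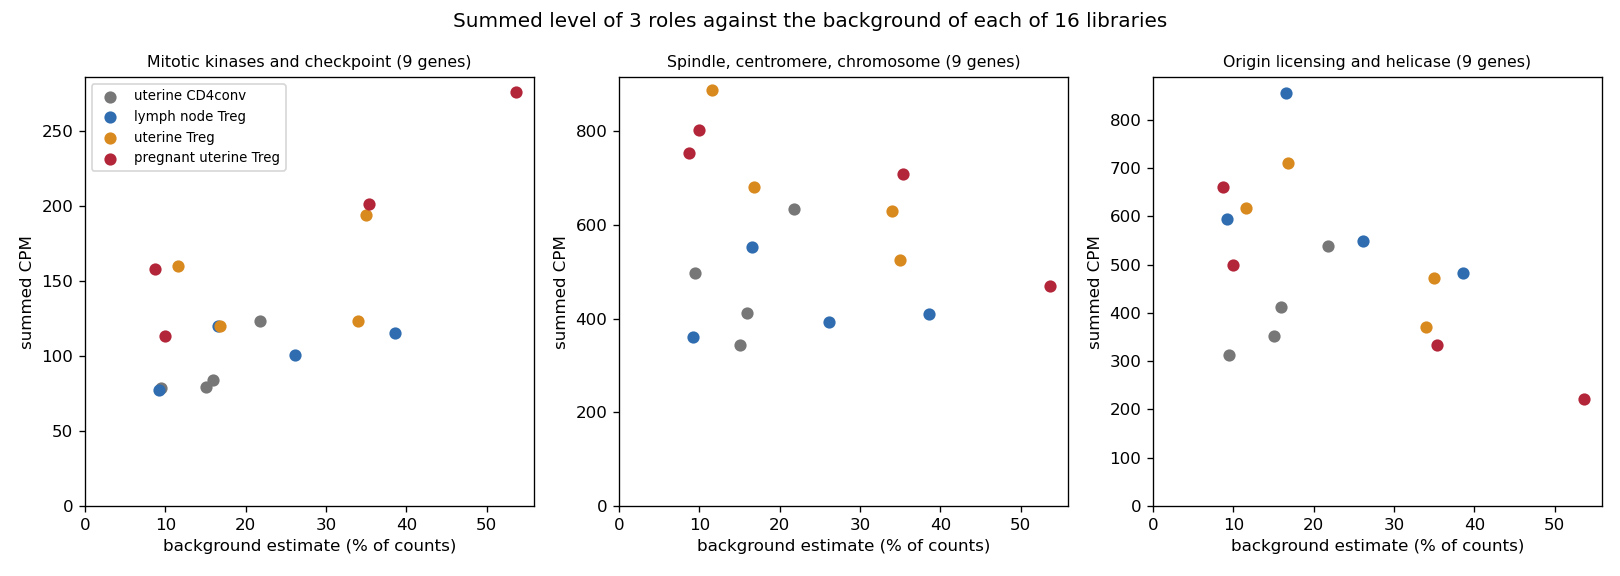
Summed CPM of 3 roles (9 genes each) against the estimated background, as percent of counts, in each of the 16 libraries, colored by group. The mitotic sum is highest, at 276 CPM, in the library with 53.6% background, while the licensing sum is lowest there, at 222 CPM.

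Pregnancy gave no call among the members. Of 50 members, 32 had a positive and 18 a negative fitted difference between pregnant and non-pregnant uterine Treg, with a median of 0.16 on the log2 scale beside 0.11 for all genes tested. No member and none of the 30096 genes passed (edgeR); 822 genes, and 2 members, had an unadjusted p under 0.05: Kif11 (1.36 ± 0.52) and Cdc45, the helicase activator (-1.62 ± 0.65). DESeq2 called 12 genes and 0 members. In the fit above background 0 of 4707 passed and 301 had an unadjusted p under 0.05. In the other comparisons the medians of the members were 0.03 (uterine against lymph node Treg), 0.03 (uterine Treg against CD4conv) and 0.17 (pregnant Treg against CD4conv), beside -0.06, -0.05 and 0.07 for all genes tested. Between libraries of a group the level of the median member had an SD of 0.37 on the log2(CPM + 1) scale, pooled over the 4 groups. Pregnant and non-pregnant groups were sequenced in different batches, so batch and pregnancy cannot be told apart.

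Of 108 further genes of the cycle, 107 could be tested: 32 of DNA replication, 46 of mitosis and 29 of the pocket proteins, other E2F factors and quiescence. Over all genes 1 of them passed, Ccnd1, cyclin D1, which T cells use little. It had 10.2, 29.2, 26.7 and 6.65 CPM in CD4conv and at most 7.44 CPM in any Treg library, and uterine Treg differed from CD4conv by -5.56 ± 1.14 (edgeR adjusted p = 0.0171). The call held in 3 of 8 fits with 1 library left out, and its highest values were in CD4conv 2 and 3. Without those 2 libraries the difference was -4.03 (edgeR adjusted p = 0.874). Exons of LTO1 on the other strand overlap 1100 of its bases.

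Among genes above background the transcription factor Foxo1, which supports quiescence and homing of T cells, and Smc4, a condensin subunit that compacts mitotic chromosomes, were higher in Treg. Foxo1 had 359, 146, 194 and 353 CPM in CD4conv and 338 to 912 CPM in uterine Treg, which overlapped in uterine Treg 5, and uterine Treg exceeded CD4conv by 1.41 ± 0.28 (edgeR adjusted p = 0.0037). Pregnant Treg, at 477 to 915 CPM, exceeded CD4conv in Foxo1 by 1.56 ± 0.28 (edgeR adjusted p = 0.00151). Smc4 had 171, 164, 86.3 and 177 CPM in CD4conv against 222 to 561 CPM in uterine Treg, a difference of 1.36 ± 0.29 (edgeR adjusted p = 0.00653), and in pregnant Treg, at 140 to 604 CPM, the difference was 1.52 ± 0.29 (edgeR adjusted p = 0.00267). Lymph node Treg had 518 to 834 CPM of Foxo1 and 414 to 691 CPM of Smc4. Exons of Gm20402 on the other strand overlap 674 bases of those of Foxo1, so its values are uncertain by that share. Without CD4conv 2 and 3 both kept their calls in pregnant Treg and lost them in uterine Treg (edgeR adjusted p = 0.0921 for Foxo1 and 0.0813 for Smc4). The 46 mitosis genes had a median difference of 0.36 between pregnant Treg and CD4conv, 38 of them positive and 0 past the threshold over all genes, beside a median of 0.07 for all genes. The 32 replication genes had a median of 0.05 there, 16 positive and 16 negative.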

How the data were processed

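RNA was measured in 16 libraries. Per the labels' protocols, CD4-enriched cells were flow sorted, amplified with SMART-Seq v4 and sequenced as paired reads of Nextera XT libraries. The authors deposited raw read counts per gene. Per the submitters' processing notes, processing involved featureCounts, HISAT2, Trimmomatic, SAMtools and DESeq2 on GRCm38. Versions and roles of these tools: not given in the sources used here. All 16 single-library files held the values of the joint table. The members and gene lists were chosen with earlier results of these data known.

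Counts were tested with edgeR 4.0.16 in R 4.3.3 (TMM, low-count filter, robust quasi-likelihood, all 16 libraries in 1 fit, Benjamini-Hochberg adjustment, threshold 0.05), without a replicate block, and with DESeq2 1.42.0 (Wald test) as the alternative. The fit used 30096 genes, or the 4707 above background: protein-coding genes whose mean CPM exceeded 5 times the level expected from receptor genes per exonic base (GENCODE M21). CPM is a count scaled to a library total of 1000000. The biological coefficient of variation was 0.812 over all genes and 0.430 above background. The scripts were tested on simulated data. Precision is limited by depth, 1718558 to 15190212 counts per library. Numbering was checked by correlating same-numbered libraries' deviations from their group means: in pregnant Treg against CD4conv these were 0.11, 0.12 and 0.11 for numbers 1, 2 and 3, over the 0.1 set for pairing. In the other comparisons at least 1 was negative. Alternatives were DESeq2 size factors, no count filter, 2-group fits, the replicate block and each library left out, plus, added after seeing the data, the same within genes above background and fits without libraries of high background or high macrophage markers, and a fit without the block on the libraries numbered 1 to 3.

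Values in every library are given for 13 members listed by symbol, members past the threshold, and the highest member per length in each role; others were named for their values. Motifs were searched in RefSeq promoters.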

Additional observations from a re-analysis of the deposited data

Results flagged for a closer look

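Of 116 gene and group combinations (29 genes), 6 had 1 library far from its group's other 3, a gap that chance gives in about 1 of 20 groups. Those in CD4conv included the following: Top2a at 75.3 CPM and Cenpa at 140 CPM in CD4conv 5, where the other libraries began at 39.6 and 78.2 CPM, and Stmn1 at 45.1 CPM in CD4conv 2. Smc4 was low in CD4conv 3, at 86.3 CPM against up to 177 CPM. In lymph node Treg, Ccnd3 was at 192 CPM in replicate 1 and Mcm6 at 181 CPM in replicate 5, where the lowest libraries had 129 and 95.4 CPM.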

How the results depend on the processing

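Cdc25b kept a positive difference in its 3 called comparisons under every alternative run, and its call among genes above background in all but 2: the tissue comparison without libraries of high background, and uterine Treg against CD4conv with the replicate block (2.22, edgeR adjusted p = 0.102). Counts of genes called moved more. With DESeq2's Wald test, higher and lower calls were 12 and 18 (uterine against lymph node Treg), 42 and 288 (uterine Treg against CD4conv), 4 and 8 (pregnancy), and 56 and 274 (pregnant Treg against CD4conv), with 1, 1, 0 and 2 members higher. Among genes above background they were 45 and 17, 149 and 144, 0 and 0, and 197 and 202, with 2, 3, 0 and 2 members higher and 1 lower in the second. Over all genes the counts were 0 and 0, 10 and 146, 0 and 0, and 10 and 120.

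Without the 5 libraries over 30% background, calls over all genes were 113 and 327 with 3 members higher (uterine Treg against CD4conv), 2 and 1 (pregnancy) and 125 higher with 1 member (pregnant Treg against CD4conv). Above background they were 12 and 5 with 0 members (tissue), 1 higher (pregnancy), and 111 lower with 1 member higher (pregnant Treg against CD4conv). Without CD4conv 2 and 3, both comparisons with CD4conv gave 1 and 23 over all genes, and above background 56 and 48 with 1 member higher and 0 lower (uterine Treg) and 63 and 46 with 1 member higher (pregnant Treg). With only the libraries of the 2 groups, pregnant Treg against CD4conv gave 2 and 74 over all genes and 66 and 100 above background with 1 member, and the tissue comparison 77 and 35 above background. The cause of these shifts was not tested; fewer libraries enter each such fit.

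With the replicate block, the tissue comparison gave 1 and 4 over all genes and, above background, 26 lower and 1 member higher. Pregnancy gave 2 higher, and uterine Treg against CD4conv 59 and 62 above background with 1 member higher (Mcm6) and 0 lower. Cenpa and Cdkn2d lost their calls there (edgeR adjusted p = 0.0826 and 0.0645), as did Cenpa in the tissue comparison (0.0601). Only pregnant Treg and CD4conv met the pairing criterion, although pregnant and non-pregnant pools cannot hold the same mice. The non-pregnant groups are all numbered 1, 2, 3 and 5, and the pregnant group 1 to 4. The labels do not say what a shared number means, so the criterion cannot exclude shared pools among the non-pregnant groups. Between pregnant Treg and CD4conv, Mcm6 was the only reported member whose call differed with the block. That fit also left out CD4conv 5 and pregnant uterine Treg 4. The same 6 libraries without the block gave 203 lower over all genes and, above background, 120 higher, and the members' calls of the fit on all libraries; this fit was added after seeing the data.

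With 1 library left out in turn, the tissue comparison above background gave 15 to 46 higher, 4 to 16 lower and 1 to 2 members higher, and the median of the members over all genes -0.38 to 0.20. Uterine Treg against CD4conv gave 3 to 11 higher and 69 to 164 lower over all genes, and 89 to 166 and 94 to 168 above background, with 1 to 2 members lower. Pregnant Treg against CD4conv gave 2 to 16 and 69 to 148 over all genes, and 115 to 217 and 122 to 256 above background, with 1 to 3 members higher. Mki67 ranged from -0.0072 to 0.9438 in uterine Treg against CD4conv, where its sign reversed without uterine Treg 2 (-0.0072, from 0.68). The sign also reversed for Cdkn1a there without CD4conv 2 and 3 (0.0405 over all genes, 0.0215 above background). DESeq2 size factors moved the median gene by up to 0.19 (from -0.05 to 0.14 in uterine Treg against CD4conv). At the lowest depth, in lymph node Treg 3, a count of 0 allows up to 1.75 CPM, for counting error only.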
